A study of Mus musculus with 10 samples.

Results

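The 34 genes described here mark astrocytes, the star-shaped glial cells of the brain. They were chosen by name and matched to array probes through the RefSeq accession of each probe, with the brightest probe standing for a gene. All 34 were measured, among 23574 features tested. The hippocampus came from 5 conditional knockout (cKO) mice, which lose dual leucine zipper kinase (DLK, gene Map3k12), and from 5 DLK wild-type (WT) mice. Both genotypes were adult and both ate a tamoxifen diet for 3 weeks, which induced the loss of DLK in the cKO mice. The recombinase, the cells it acts in, the deleted exons and the sex of the mice are given in none of the sources used. Each mouse had 1 array, on which hippocampal RNA labelled with Cy5 was hybridised against a commercial pool of mouse RNA labelled with Cy3. Values are log2 ratios of hippocampus over this reference pool, and differences are cKO minus WT.

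Astrocytes clear glutamate and potassium released by active neurons, return glutamine to them, move water and bicarbonate, share metabolites through gap junctions and secrete lipoproteins. In the hippocampus their fine processes wrap the excitatory synapses. When neurons are damaged, astrocytes become reactive and raise the intermediate filament Gfap with other genes. The series asked how loss of DLK, a kinase upstream of JNK signalling in neurons, alters gene expression in the adult hippocampus. In whole tissue, fewer cells of a type and less RNA per cell cannot be told apart.

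Median Cy5 signal per array was 146 to 202 over a background of 29 to 31, and correlations between arrays over all features were 0.980 to 0.996. Map3k12 had a log2 ratio of 0.51 ± 0.24 in cKO mice and 1.93 ± 0.19 in WT mice (SD, n = 5 each). Its log2 ratio fell by 1.41 (standard error 0.12, adjusted p = 0.000975 by limma), and it was the only feature past an adjusted p of 0.05. Slide was largely tied to genotype. Slide 1 held cKO mice 1, 3, 4 and 5, slide 2 held cKO mouse 2 with WT mice 1, 2 and 4, and slide 3 held WT mice 3 and 5. Outside slide 2, a genotype difference therefore cannot be told apart from a difference between slides.

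The genes were abundant in hippocampus relative to the reference pool. Every one of the 34 genes was well above background in Cy5 on all 10 arrays, and none was saturated. All 34 had a log2 ratio above 0 in every mouse, against 44.5% of all features, and 33 were above 1 in every mouse, against 17.4% of all features. The exception was F3, tissue factor, at 0.35 ± 0.14 in cKO mice and 0.37 ± 0.19 in WT mice (SD, n = 5 each). In the reference channel 4 genes were not well above background on every array, so that their ratios to the reference are bounded only from below where Cy3 was dim. Cy3 passed on 2 arrays for Gfap, on 0 arrays for Slc39a12 and on 9 arrays each for Aqp4 and Gjb6.

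No astrocyte gene passed the test between genotypes. Of the 34, 26 had a higher mean in cKO mice and 8 a higher mean in WT mice, while 54.8% of all features were higher in cKO. The median difference was 0.08 over the 34 genes and 0.01 over all features. The count past the adjusted threshold was 0 of 34, where 0.00424% of all features were called. At an unadjusted limma p under 0.05 the count was also 0 of 34, against 3.86% of all features (2.83% higher and 1.03% lower in cKO), and by exact two-sided permutation tests of 5 against 5 mice it was 0 as well. The smallest exact p among the 34 was 0.111, where this design can reach 0.00794. No gene had all cKO mice above all WT mice, which 0.53% of features did, or all below, which 0.246% did. Single differences ran from -0.12 for Id4 to 0.27 for Slc4a4. The 95% interval lay within a 1.5-fold change in either direction for 32 genes and within a 2-fold change for all 34. The lean towards cKO depended on the processing: 15 of the 34 were higher in cKO with the Cy5 channel alone. The count was 16 with the median of each array in place of loess and 3 with slide as a fixed block. With slide as a random block it was 28 (median 0.1007), but the correlation within slides in that fit was -0.129. That fit therefore did not take out differences between slides. The plot of differences by role shows these intervals, together with the values from slide 2 alone.

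**Figure D1:**
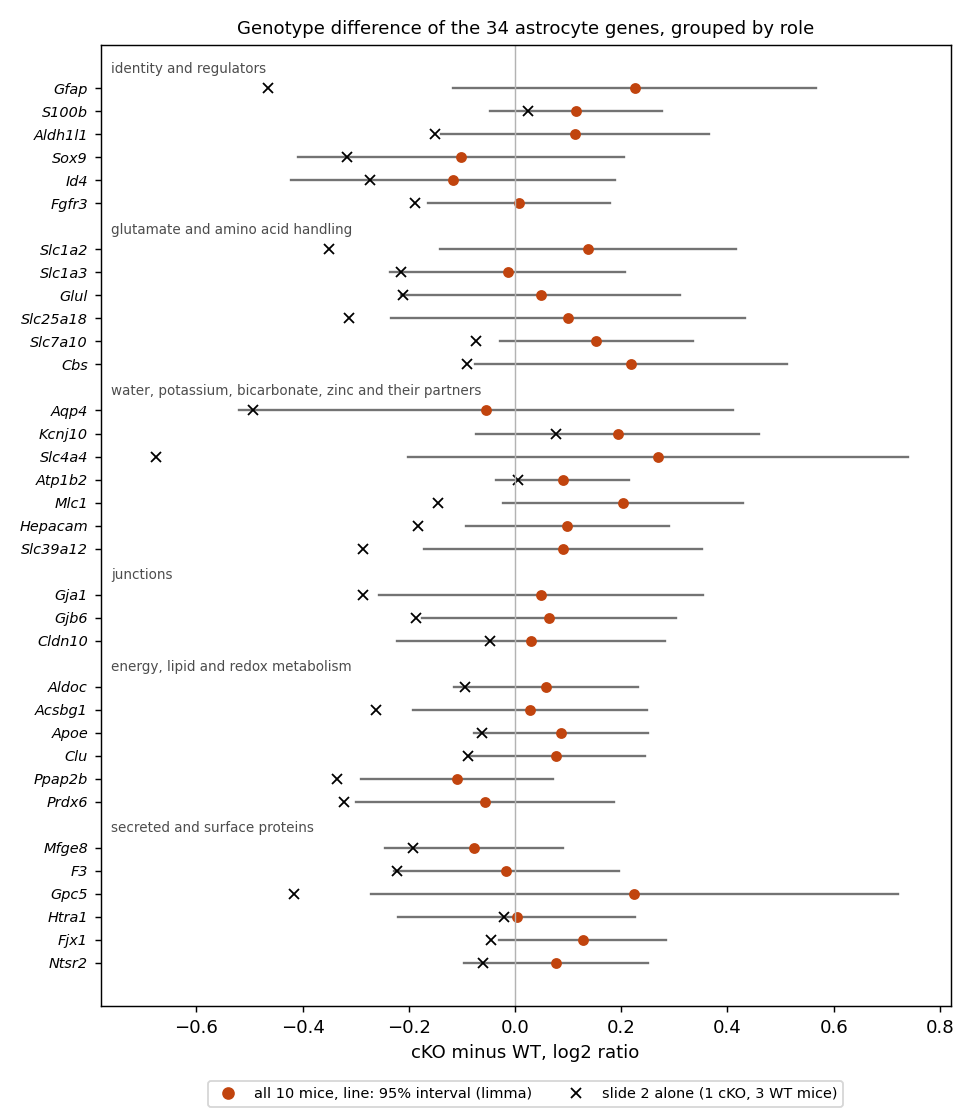
The difference cKO minus WT in log2 ratio is plotted for each of the 34 genes, grouped by role, as a dot with its 95% interval from limma over 10 mice. All 34 intervals cross 0, and the crosses, which give slide 2 alone (1 cKO and 3 WT mice), lie to the left of 0 for all but 3 genes.

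Promoters of 28 of the 34 genes were found in a RefSeq table of assembly GRCm38.p6, which gives 250 bases before and 50 bases after a gene's start. STAT3, a transcription factor, is known to drive Gfap in reactive astrocytes, so the letters TTCNNNGAA of a STAT site were searched on both strands. They were present in 5 of the 28 (17.9%) and in 9.55% of the 27025 genes of the table. The NFI motif TTGGCA was present in 4 of the 28 (14.3%, against 16.1% of all genes). The SOX core ACAAAG was also in 4 (14.3%, against 21% of all genes), its variant ACAATG in 1 (3.57%, against 14.3%) and the TATA box TATAAA in 6 (21.4%, against 15.7%). A match describes the letters alone. The promoters with the STAT letters are shown because Gfap and Slc1a3, a marker of reactive change and a glutamate transporter, are among them. Each is given 5′ to 3′ on the strand of the gene, with 250 bases before the start and 10 after it, and the STAT letters in capitals. They lie at chr11:102897191-102897450 on the minus strand for Gfap, chr15:8710798-8711057 on the minus strand for Slc1a3, chr11:78323948-78324207 on the plus strand for Aldoc, chr9:54661876-54662135 on the minus strand for Acsbg1 and chr12:16653220-16653479 on the plus strand for Ntsr2.
Gfap: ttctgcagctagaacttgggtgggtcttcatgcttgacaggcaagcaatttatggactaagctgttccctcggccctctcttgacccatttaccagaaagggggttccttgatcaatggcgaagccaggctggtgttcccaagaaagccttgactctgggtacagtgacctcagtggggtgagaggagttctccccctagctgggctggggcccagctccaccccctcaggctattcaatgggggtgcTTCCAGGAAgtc
Slc1a3: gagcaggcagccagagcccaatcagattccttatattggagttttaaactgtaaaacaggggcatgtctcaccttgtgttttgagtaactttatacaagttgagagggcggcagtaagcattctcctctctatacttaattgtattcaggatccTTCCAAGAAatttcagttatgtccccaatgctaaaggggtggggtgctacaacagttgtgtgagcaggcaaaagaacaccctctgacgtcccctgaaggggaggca
Aldoc: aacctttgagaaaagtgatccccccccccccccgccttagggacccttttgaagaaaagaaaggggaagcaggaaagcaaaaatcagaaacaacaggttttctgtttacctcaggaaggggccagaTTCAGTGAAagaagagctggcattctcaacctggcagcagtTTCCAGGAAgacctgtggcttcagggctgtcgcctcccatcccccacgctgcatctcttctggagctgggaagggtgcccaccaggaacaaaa
Acsbg1: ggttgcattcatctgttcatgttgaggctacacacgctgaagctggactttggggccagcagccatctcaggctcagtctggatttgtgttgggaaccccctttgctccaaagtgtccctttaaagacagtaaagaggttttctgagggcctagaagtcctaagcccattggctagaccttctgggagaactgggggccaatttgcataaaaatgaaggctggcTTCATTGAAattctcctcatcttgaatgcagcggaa
Ntsr2: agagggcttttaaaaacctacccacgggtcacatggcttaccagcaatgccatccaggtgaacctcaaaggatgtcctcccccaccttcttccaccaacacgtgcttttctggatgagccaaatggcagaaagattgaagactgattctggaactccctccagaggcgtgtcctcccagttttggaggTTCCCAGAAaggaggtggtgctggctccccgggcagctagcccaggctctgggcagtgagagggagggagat

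Among the 6 genes of astrocyte identity and regulation, 4 were higher and 2 lower in cKO, and 0 passed the test. Gfap, the intermediate filament of astrocytes, had log2 ratios of 5.72, 5.21, 5.76, 5.76 and 5.99 in cKO mice 1 to 5, against 5.61, 5.63, 5.07, 5.80 and 5.22 in WT mice 1 to 5. Mouse 2 was far below the other cKO mice, and mice 3 and 5 were the low ones in WT, so the groups overlapped. Gfap averaged 5.69 ± 0.29 in cKO mice and 5.46 ± 0.31 in WT mice (SD, n = 5 each), a difference of 0.23 (95% interval -0.12 to 0.57), with limma adjusted p = 0.99995, as for every gene of the 34. The low WT mouse 3 came with a brighter reference: its Cy3 signal was 113 there and 45.5 to 55 on the other 9 arrays, while its Cy5 signal of 5067 lay inside the range of the others. The 2 other Gfap probes gave differences of -0.039 and -0.042. Aldh1l1, an enzyme of folate metabolism used as a general astrocyte marker, had log2 ratios of 3.56, 3.40, 3.65, 3.34 and 3.95 in cKO mice 1 to 5, against 3.65, 3.45, 3.51, 3.54 and 3.19 in WT mice 1 to 5. Its highest value was in cKO mouse 5 and its lowest in WT mouse 5, and the difference was 0.11 (95% interval -0.14 to 0.36). Sox9, a transcription factor that specifies astrocytes, was printed 10 times on the array and read 1.28, 1.43, 1.80, 1.26 and 2.04 in cKO mice 1 to 5, against 1.69, 1.77, 1.67, 1.76 and 1.42 in WT mice 1 to 5. The cKO mice spanned a wider range than the WT mice, with 2 of them above and 2 below every WT mouse, and the difference was -0.10 (95% interval -0.41 to 0.21). S100b, a calcium-binding protein, averaged 5.05 ± 0.14 in cKO mice and 4.93 ± 0.10 in WT mice (SD, n = 5 each). Id4, an inhibitor of basic helix-loop-helix factors, averaged 5.59 ± 0.28 in cKO mice and 5.71 ± 0.25 in WT mice (SD, n = 5 each). Fgfr3, a receptor for fibroblast growth factors, averaged 3.23 ± 0.16 in cKO mice and 3.22 ± 0.10 in WT mice (SD, n = 5 each), one of the smallest differences of the 34 genes at 0.01.

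**Figure D2:**
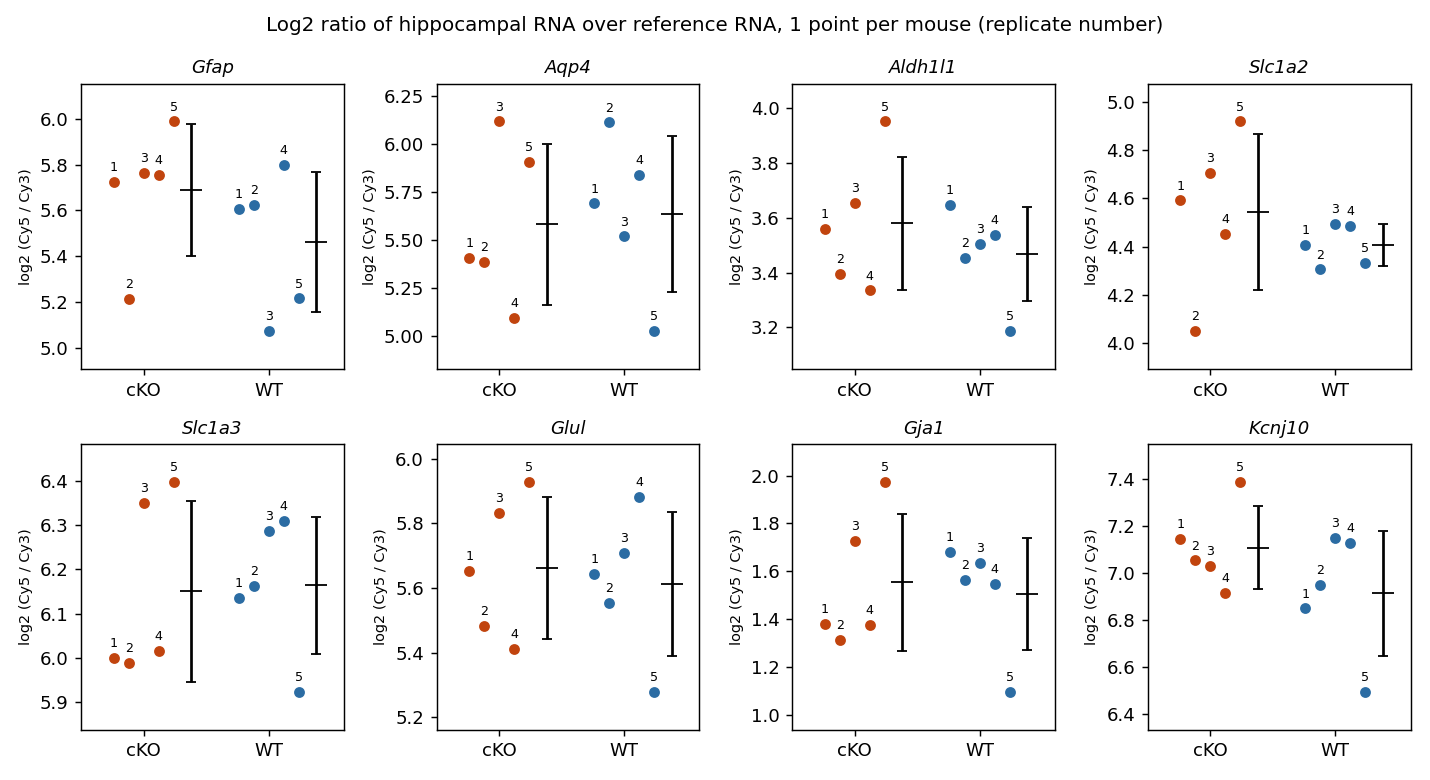
The log2 ratio of hippocampal over reference RNA is plotted for 8 widely used astrocyte genes, 1 point per mouse with its replicate number, cKO left and WT right, with the mean and SD of 5 mice as bars. The genotypes overlap in every panel, cKO mouse 5 is the highest cKO mouse in 7 of the 8 panels, and WT mouse 5 is the lowest WT mouse in 6 of them.

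For glutamate and amino acid handling, 5 of 6 genes were higher in cKO, 1 was lower, and 0 passed the test. Slc1a2, the main glutamate transporter of the forebrain, had log2 ratios of 4.59, 4.05, 4.70, 4.45 and 4.92 in cKO mice 1 to 5, against 4.41, 4.31, 4.496, 4.49 and 4.33 in WT mice 1 to 5. The WT mice lay close together and the cKO mice fell on both sides of them, mouse 2 below and mice 1, 3 and 5 above. The difference was 0.14 (95% interval -0.14 to 0.42), and both other Slc1a2 probes ran the same way, at 0.09 and 0.11. Slc1a3, the second astrocyte glutamate transporter, had log2 ratios of 5.999, 5.99, 6.35, 6.02 and 6.40 in cKO mice 1 to 5, against 6.14, 6.16, 6.29, 6.31 and 5.92 in WT mice 1 to 5. In cKO, mice 3 and 5 stood above the other 3 mice, and the genotype means were almost equal, with a difference of -0.01 (95% interval -0.23 to 0.21). Glul, glutamine synthetase, had log2 ratios of 5.65, 5.48, 5.83, 5.41 and 5.93 in cKO mice 1 to 5, against 5.64, 5.55, 5.71, 5.88 and 5.28 in WT mice 1 to 5. Its difference was 0.05 (95% interval -0.21 to 0.31), smaller than its spread of 0.222 between mice of one genotype. Slc25a18, a mitochondrial glutamate carrier, was among the 5 genes with the widest spread, with log2 ratios of 4.15, 3.83, 4.43, 3.71 and 4.19 in cKO mice 1 to 5, against 4.20, 4.01, 3.84, 4.22 and 3.53 in WT mice 1 to 5. Both genotypes covered about the same span, and the difference was 0.10 (95% interval -0.23 to 0.43). Slc7a10, an exchanger of serine and other small amino acids, had log2 ratios of 4.08, 3.84, 4.03, 3.91 and 4.28 in cKO mice 1 to 5, against 4.01, 3.85, 3.92, 3.87 and 3.73 in WT mice 1 to 5. All cKO mice but 2 and 4 exceeded every WT mouse, and the difference of 0.15 (95% interval -0.03 to 0.33) had an unadjusted limma p of 0.0906 (exact permutation p = 0.127). Cbs, which makes cystathionine from homocysteine and serine, had log2 ratios of 2.90, 2.45, 2.84, 2.85 and 3.29 in cKO mice 1 to 5, against 2.60, 2.36, 2.89, 2.65 and 2.73 in WT mice 1 to 5. Mouse 5 was highest and mouse 2 lowest among the cKO mice, and the difference was 0.22 (95% interval -0.07 to 0.51). The reference signal of the Cbs probe ranged from 368 to 635 over the arrays, and its Cy3 SD (0.281) was larger than its Cy5 SD (0.237).

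The 7 genes of water, potassium, bicarbonate and zinc transport and their partners held the largest difference of the 34, that of Slc4a4. Of these 6 were higher and 1 was lower in cKO, and 0 passed the test. Aqp4, the water channel of astrocyte endfeet, had log2 ratios of 5.41, 5.39, 6.12, 5.10 and 5.90 in cKO mice 1 to 5, against 5.69, 6.11, 5.52, 5.84 and 5.03 in WT mice 1 to 5. High and low mice occurred in both genotypes and the difference was -0.06 (95% interval -0.52 to 0.41). A second Aqp4 probe had the opposite sign, at 0.18, and the Cy3 signal of the probe used ranged from 66.5 to 164. Kcnj10, the inward rectifier potassium channel that buffers potassium, had log2 ratios of 7.15, 7.06, 7.03, 6.92 and 7.39 in cKO mice 1 to 5, against 6.85, 6.95, 7.15, 7.13 and 6.50 in WT mice 1 to 5. WT mouse 5 was the lowest of the 10 mice, and the difference of 0.19 (95% interval -0.07 to 0.46) had an unadjusted limma p of 0.141 (exact permutation p = 0.254). Slc4a4, a sodium bicarbonate cotransporter, had log2 ratios of 3.76, 2.69, 3.29, 3.67 and 3.77 in cKO mice 1 to 5, against 3.02, 3.38, 2.92, 3.71 and 2.82 in WT mice 1 to 5. The cKO mouse 2 was the lowest of the 10 mice, and the largest difference of the 34 genes, 0.27 (95% interval -0.20 to 0.74), was still smaller than the pooled SD of 0.416. Its other probes gave 0.03 and -0.08. Mlc1, a membrane protein of astrocyte junctions at blood vessels, had log2 ratios of 7.18, 6.94, 7.34, 7.12 and 7.56 in cKO mice 1 to 5, against 7.13, 7.04, 7.05, 7.08 and 6.83 in WT mice 1 to 5. The cKO mice 1, 3 and 5 were above every WT mouse, and the difference of 0.20 (95% interval -0.02 to 0.43) had the smallest unadjusted limma p of the 34, 0.0744 (exact permutation p = 0.143). Hepacam, the adhesion molecule that binds Mlc1, averaged 1.32 ± 0.16 in cKO mice and 1.22 ± 0.14 in WT mice (SD, n = 5 each). Atp1b2, a subunit of the sodium pump, had the smallest spread of the 34 genes and averaged 4.20 ± 0.09 in cKO mice and 4.11 ± 0.07 in WT mice (SD, n = 5 each). Slc39a12, a zinc transporter, averaged 4.85 ± 0.26 in cKO mice and 4.76 ± 0.16 in WT mice (SD, n = 5 each).

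The 3 junction genes were all higher in cKO by small amounts and 0 passed the test. Gja1, the main connexin of astrocytes, was printed 10 times on the array and read 1.38, 1.31, 1.73, 1.38 and 1.97 in cKO mice 1 to 5, against 1.68, 1.56, 1.63, 1.55 and 1.09 in WT mice 1 to 5. The cKO mice formed a low set of 3 and a high pair, the WT mice were close together except mouse 5, and the difference was 0.05 (95% interval -0.26 to 0.35). Gjb6, a second astrocyte connexin, averaged 6.43 ± 0.23 in cKO mice and 6.37 ± 0.17 in WT mice (SD, n = 5 each). Cldn10, a claudin, averaged 4.63 ± 0.24 in cKO mice and 4.60 ± 0.18 in WT mice (SD, n = 5 each).

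Energy, lipid and redox metabolism was represented by 6 genes, of which 4 were higher and 2 lower in cKO, with 0 past the test. Aldoc, a brain aldolase, differed by 0.06 (95% interval -0.12 to 0.23) and Acsbg1, a fatty acid-activating enzyme, by 0.03 (95% interval -0.19 to 0.25). Apoe, the main apolipoprotein of the brain, was printed 10 times and differed by 0.09 (95% interval -0.08 to 0.25). For Clu, a secreted chaperone also called clusterin, the difference was 0.08 (95% interval -0.09 to 0.24). Ppap2b, a lipid phosphate phosphatase now named Plpp3, was lower in cKO, with a difference of -0.11 (95% interval -0.29 to 0.07). Prdx6, a peroxiredoxin, was likewise lower, at -0.06 (95% interval -0.30 to 0.19).

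Secreted and surface proteins made up the last 6 genes, 4 higher and 2 lower in cKO, with 0 past the test. Fjx1, homolog of a fly polarity gene, had log2 ratios of 4.28, 4.12, 4.24, 4.42 and 4.22 in cKO mice 1 to 5, against 4.29, 4.0, 4.04, 4.22 and 4.10 in WT mice 1 to 5. Mouse 4 was the highest cKO mouse, for this gene alone of the 34, and the difference of 0.13 (95% interval -0.03 to 0.28) had an unadjusted limma p of 0.103 (exact permutation p = 0.111). Gpc5, a glypican of the cell surface, had the widest spread of the 34 genes, with log2 ratios of 3.49, 2.50, 3.12, 3.05 and 3.75 in cKO mice 1 to 5, against 2.87, 2.82, 3.57, 3.05 and 2.47 in WT mice 1 to 5. Its reference signal was 101 to 124 on the arrays of cKO mice 1, 4 and 5 and WT mouse 3, and 177.5 to 220.5 on the other arrays. Its Cy3 SD of 0.413 was larger than its Cy5 SD of 0.198. Mfge8, which bridges dying cells to phagocytes, differed by -0.08 (95% interval -0.24 to 0.09), and F3 by -0.02 (95% interval -0.23 to 0.20). Htra1, a secreted protease, differed by 0.00 (95% interval -0.22 to 0.23), the smallest difference in size of the 34. Ntsr2, a neurotensin receptor, had no value in WT mouse 2 and differed by 0.08 (95% interval -0.10 to 0.25) over the other 9 mice.

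Variation between mice of one genotype was larger for these genes than for most features. The pooled SD within genotype had a median of 0.192 over the 34 genes and of 0.120 over all features, and 32 of the 34 exceeded the median of all features. The genotype difference exceeded the pooled SD for 4 of the 34. Wide spread was not particular to astrocyte genes. The median pooled SD was 0.545 over choroid plexus, 0.311 over ependyma, 0.187 over microglia and 0.179 over oligodendrocyte markers. It was 0.144 over oligodendrocyte precursor, 0.132 over endothelial and 0.124 over neuron markers. For the 3 genes printed 10 times, the spread between the spots of one array was smaller than that between mice. Over the 10 spots of one array, the SD of the background-subtracted log2 ratio was 0.0400 to 0.0740 for Sox9, 0.0245 to 0.0497 for Gja1 and 0.0453 to 0.0801 for Apoe. Between mice the SD was 0.264 for Sox9, 0.262 for Gja1 and 0.122 for Apoe. Spots of one array share the RNA preparation and labelling, so this comparison does not separate the animal from its sample.

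The genes deviated together in the same mice. The only cKO mouse on slide 2 was mouse 2, so its deviation from the other cKO mice, all on slide 1, cannot be told apart from slide. For each gene the mean of the genotype was subtracted, and the median of the 34 deviations was taken in each mouse. In cKO it was -0.01, -0.17, 0.09, -0.12 and 0.25 for mice 1 to 5, and in WT it was 0.06, -0.001, 0.06, 0.08 and -0.23 for mice 1 to 5. The count of genes below their genotype mean was 18, 34, 7, 31 and 1 of 34 in cKO mice 1 to 5. In WT mice 1, 3, 4 and 5 it was 9, 6, 4 and 33 of 34, and in WT mouse 2 it was 17 of the 33 measured. Mouse 5 was the highest cKO mouse for 26 of the 34 genes, where it was so for 30.0% of all features. Mouse 2 was the lowest cKO mouse for 21 genes (23.6% of all features) and mouse 4 for another 10 (17.98%). WT mouse 5 was the lowest WT mouse for 29 genes (31.7% of all features) and the highest for 0. The exceptions to the low WT mouse 5 were Gfap, lowest in mouse 3, and Slc1a2, Cbs, Atp1b2 and Fjx1, lowest in mouse 2. The 6 role groups shared the direction: cKO mouse 2 and WT mouse 5 had a median deviation below 0 in each group, and cKO mouse 5 one above 0 in each.

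**Figure D3:**
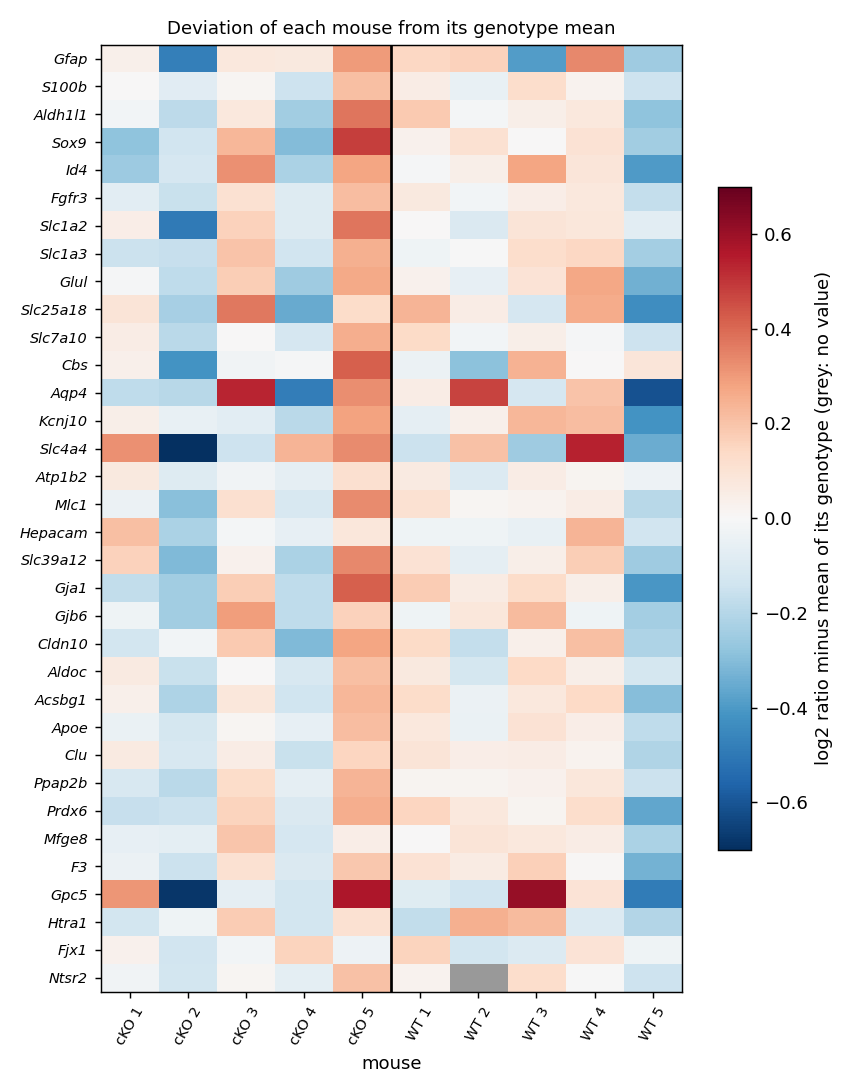
Each cell gives the log2 ratio of a gene (rows, 34) in a mouse (columns, cKO left of the line and WT right) minus the mean of its genotype, red above and blue below. The columns of cKO mouse 5 and WT mouse 5 are nearly uniform, red for 33 of 34 genes and blue for 33 of 34 genes, and that of cKO mouse 2 is blue for all 34.

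Between mice of one genotype on the same slide, the median difference of the 34 genes ranged from 0.03 to 0.36 in size over 10 pairs, none of which includes cKO mouse 2. The widest pair was on slide 1, where cKO mouse 5 exceeded cKO mouse 4 in 33 of 34 genes with a median difference of 0.36, where 54.4% of all features were higher in mouse 5 with a median of 0.02. On slide 3, WT mouse 3 exceeded WT mouse 5 in 32 of 34 genes with a median difference of 0.28, against 50.8% of all features and a median of 0.00. The 3 pairs of WT mice on slide 2 were closer: mouse 4 exceeded mouse 1 in 21 of 34 genes with a median difference of 0.03, mouse 1 exceeded mouse 2 in 23 of the 33 compared with 0.085, and mouse 4 exceeded mouse 2 in 25 of 33 with 0.09. Genotype within a slide could be read only on slide 2, where a single cKO mouse, mouse 2, stood beside 3 WT mice. There 3 of 34 genes were higher in cKO and the median difference was -0.19, against a median of 0.00 over all features. With slide as a fixed block the sign of the group's difference turned in the same way, at -0.19 with 3 higher, and this value rests on cKO mouse 2, the lowest cKO mouse for most of the genes. With slide as a random block it kept its sign, at 0.10 with 28 higher. The correlation within slides in that fit was -0.129, so it did not take out differences between slides. Without cKO mouse 5 the median difference was 0.02 with 20 genes higher, and without WT mouse 5 it was 0.03 with 19 higher. Without both, an alternative added after the values were seen, it was -0.04 with 11 higher.

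The shared deviation appeared in the sample channel and hardly in the reference channel, as computed from the normalised data. Each channel was computed from the loess-normalised ratio and the mean intensity of both dyes. Neither is therefore the separate signal of a single dye. Before normalisation, the median Cy3 signal of some genes was also low in WT mouse 5. It was 3257.25 there for Apoe, against 3868.25 to 4024 in the other WT mice. For S100b it was 796, against 1063.5 to 1209.5. Some genes lay inside the range of the other WT mice, such as Aldh1l1 at 717 (686 to 751.5) and Gja1 at 983.75 (936.25 to 1026). With Cy5 alone, normalised between arrays, the median deviation was -0.08, -0.17, 0.16, -0.12 and 0.22 in cKO mice 1 to 5, and 0.06, 0.04, 0.08, 0.10 and -0.31 in WT mice 1 to 5. With Cy3 alone all 10 mice lay between -0.06 and 0.03. The median SD within genotype was 0.201 in Cy5 and 0.0955 in Cy3 for the 34 genes, and 0.143 in Cy5 and 0.0731 in Cy3 for all features. In 5 genes, among them Cbs, Aqp4 and Gpc5, Cy3 varied more than Cy5. Across 7 other ways to process the arrays, cKO mouse 2 and WT mouse 5 stayed below 0 in all 7. WT mouse 2 ranged from -0.54 to 0.10. When marked spots stayed in the background fit, WT mouse 2 was the lowest WT mouse, at -0.54 with 32 genes below their genotype mean. WT mouse 5 was at -0.11 there. The value of cKO mouse 5 ranged from 0.01 to 0.25. The low end came from centring each array on its median in place of loess, where the median of all features in that mouse was itself -0.16.

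**Figure D4:**
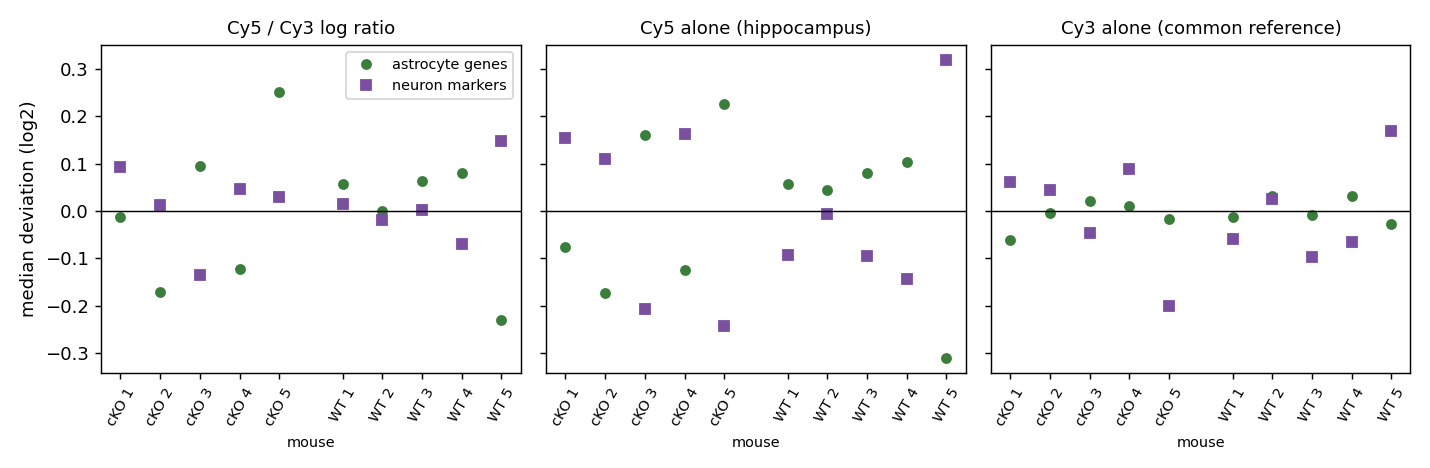
The median deviation from the genotype mean is plotted by mouse, cKO left and WT right. It is given for the 34 astrocyte genes (circles) and 12 neuron markers (squares), from the log ratio, Cy5 alone and Cy3 alone. Both channels were computed from the normalised ratio and the mean intensity of both dyes. In Cy5 the astrocyte genes span -0.31 to 0.22 and in Cy3 only -0.06 to 0.03, while neuron markers also spread in Cy3, from -0.20 to 0.17.

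A further list of 51 astrocyte genes, all measured and none among the 34, deviated in the same mice. Its median deviation was -0.01, -0.16, 0.03, -0.11 and 0.20 in cKO mice 1 to 5, and 0.10, 0.01, 0.04, 0.09 and -0.20 in WT mice 1 to 5. Between genotypes 29 were higher and 22 lower in cKO, the median difference was 0.02, and 0 passed the adjusted threshold. The count higher was 20 of 51 with Cy5 alone (median -0.02), 15 with the median of each array in place of loess (median -0.07) and 5 on slide 2 alone (median -0.17). The unadjusted limma p was under 0.05 for 2 of 51, where 3.86% of all features were. Slc6a9, a glycine transporter, ranged over 0.59 to 0.96 in cKO mice and 0.45 to 0.63 in WT mice, overlapping slightly. It averaged 0.80 ± 0.16 in cKO mice and 0.54 ± 0.08 in WT mice (SD, n = 5 each), a difference of 0.27 (95% interval 0.10 to 0.44). Elovl2, a fatty acid elongase, ranged over 4.13 to 4.72 in cKO mice and 3.20 to 4.32 in WT mice, with a difference of 0.44 (95% interval 0.03 to 0.85). The limma adjusted p was 0.99995 for both, and their 95% intervals did not cross 0. Grin2c, an NMDA receptor subunit, differed by 0.16 (95% interval -0.03 to 0.35), and Ttyh1, a chloride channel family member, by 0.13 (95% interval -0.03 to 0.28).

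Genes that mark reactive astrocytes gave no call either. Of 36 listed, 32 were measured, 22 were higher and 10 lower in cKO, the median difference was 0.03, and 0 passed the adjusted threshold. The count higher was 21 of 32 with Cy5 alone (median 0.05). It was 8 with the median of each array in place of loess (median -0.03) and 13 on slide 2 alone (median -0.01). The log2 ratio was above 0 in every mouse for 5 of the 32, against 44.5% of all features. Against 3.86% of all features, the unadjusted limma p was under 0.05 for 1 of the 32. It was Emp1, a membrane protein of reactive cells, at -5.94 ± 0.16 in cKO mice and -6.18 ± 0.10 in WT mice (SD, n = 5 each), with a difference of 0.23 (95% interval 0.06 to 0.41) and a limma adjusted p of 0.99995. Sphk1, a sphingosine kinase, differed by 0.18 (95% interval -0.04 to 0.40), Cd109 by -0.14 (95% interval -0.31 to 0.03) and Clcf1, a cytokine, by -0.10 (95% interval -0.24 to 0.03). Gfap, at 0.23, did not pass either, and its difference was below 0 under 4 of 27 alternatives: the scanner software's processed signals, Cy5 alone, slide as a fixed block and slide 2 alone. The list's median deviation was 0.09 in cKO mouse 5 and -0.11 in WT mouse 5, the highest and lowest of their genotypes, and -0.02 in cKO mouse 2.

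Markers of other cell types were set beside the astrocyte genes, mouse by mouse. Microglia, the immune cells of the brain, showed the same mice: their 12 markers had a median deviation of -0.16 in cKO mouse 2, 0.24 in cKO mouse 5 and -0.23 in WT mouse 5. The 12 oligodendrocyte markers were at 0.04, 0.09 and -0.22 in those mice. The 12 endothelial markers were at -0.085, 0.088 and -0.033 there, and the 8 markers of oligodendrocyte precursors at -0.025, 0.10 and -0.006. The 12 neuron markers were at 0.01, 0.03 and 0.15 there, so they lay higher in WT mouse 5, where the astrocyte genes lay low. That contrast depended on the processing. In WT mouse 5 the neuron markers were at 0.007 with the scanner software's processed signals and 0.04 with plain background subtraction. With the median of each array in place of loess they were at 0.21. In cKO mouse 5 they were at 0.18, 0.17 and -0.22 in these 3 settings. Choroid plexus markers, from the epithelium that makes cerebrospinal fluid, were at 0.27 in cKO mouse 2, 0.70 in cKO mouse 5 and -0.41 in WT mouse 5, and ependyma markers, from the ciliated lining of the ventricles, at 0.10, 0.40 and -0.32. Both moved further than the astrocyte genes, and in the same direction, in cKO mouse 5 and WT mouse 5, and in the opposite direction in cKO mouse 2. In Cy5 alone the neuron markers were at -0.24 in cKO mouse 5 and 0.32 in WT mouse 5, against 0.22 and -0.31 for the astrocyte genes. Neuron markers shifted the same way in the Cy3 values, at -0.20 and 0.17 in these mice. The reference RNA was the same on all arrays, but these values were computed from both dyes and are not the separate Cy3 signal. What part other cell types or the labelling had in these deviations was not tested.

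**Figure D5:**
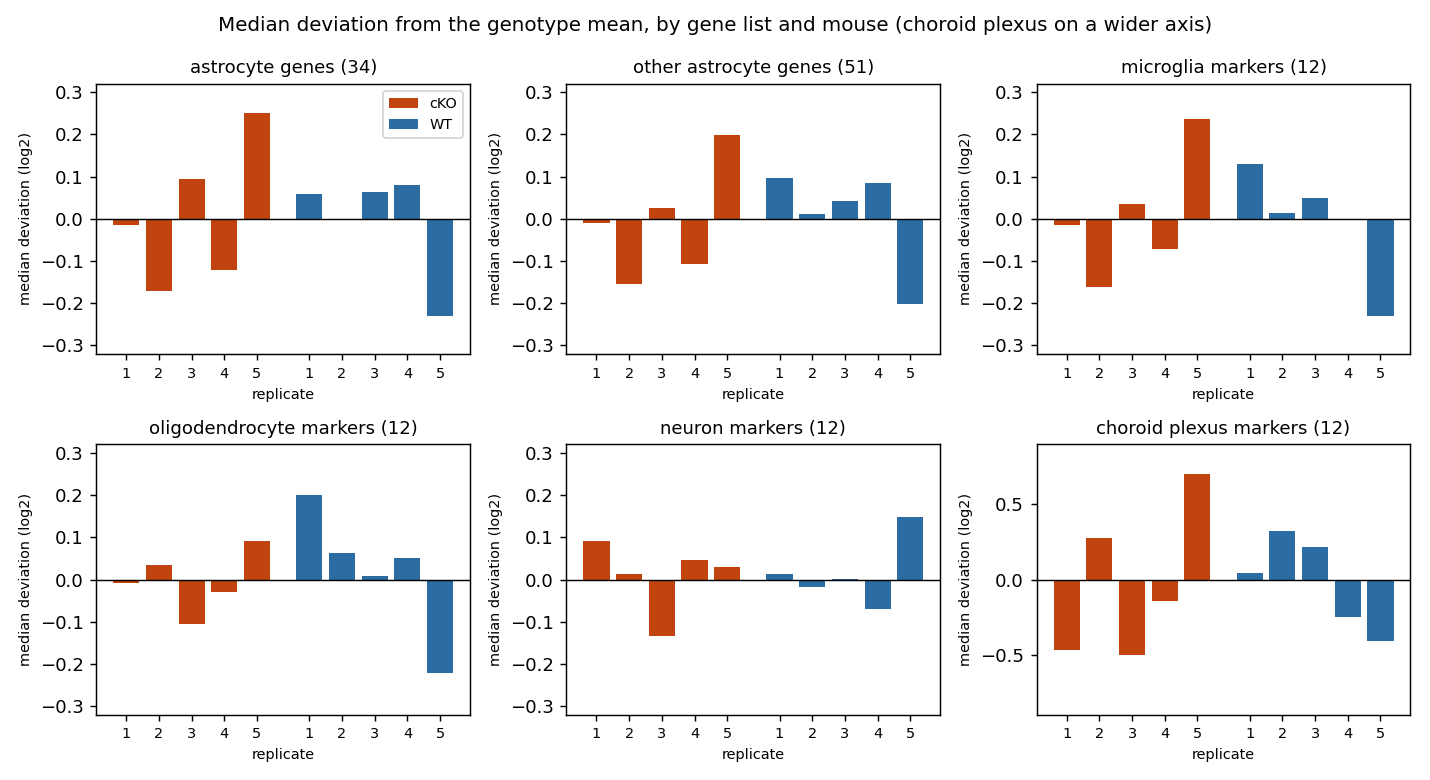
Bars give the median deviation from the genotype mean in each mouse, cKO left and WT right, for 6 gene lists, with choroid plexus markers on a wider axis. Astrocyte genes, other astrocyte genes and microglia markers have the lowest cKO bar in mouse 2, the highest in mouse 5 and the lowest WT bar in mouse 5, and neuron markers have their highest WT bar in mouse 5.

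Between genotypes, 6 of 7 marker lists of other cell types had a median difference above that of the astrocyte genes. None of their markers passed the adjusted threshold. The lists were chosen with earlier results of these data known. Over all features, 54.8% were higher in cKO and 3.86% had an unadjusted limma p under 0.05 (2.83% higher and 1.03% lower in cKO). That p was under 0.05 for 7 of 12 oligodendrocyte, 4 of 12 endothelial, 2 of 12 neuron and 1 of 8 oligodendrocyte precursor markers. It was so for 0 of 12 microglia and 0 of 9 ependyma markers. All 12 choroid plexus markers were higher in cKO, with a median difference of 1.099 and an unadjusted limma p under 0.05 for 9. F5, coagulation factor V, averaged 1.44 ± 0.64 in cKO mice and 0.35 ± 0.27 in WT mice (SD, n = 5 each) and Kcnj13, a potassium channel, 2.40 ± 0.96 in cKO mice and 0.80 ± 0.40 in WT mice (SD, n = 5 each). Ependyma markers were higher for 8 of 9, with Foxj1 at a difference of 0.34 (95% interval -0.04 to 0.72) and Rsph1 at 0.31 (95% interval -0.05 to 0.67). Oligodendrocyte markers were higher for 10 of 12, with a median of 0.31, Hapln2 at 0.42 (95% interval 0.21 to 0.64) and Mag at 0.51 (95% interval 0.23 to 0.79). Precursors of oligodendrocytes were higher for 7 of 8, with Olig1 at 0.31 (95% interval 0.14 to 0.48) and Gpr17 at 0.12 (95% interval -0.03 to 0.27). Endothelial markers were higher for 10 of 12, with Vwf at 0.30 (95% interval 0.12 to 0.49) and Emcn at 0.21 (95% interval 0.06 to 0.37). Neuron markers were higher for 12 of 12, with a median of 0.12, Gad2 at 0.27 (95% interval 0.08 to 0.46) and Nefm at 0.24 (95% interval 0.07 to 0.41). Microglia markers, higher for 10 of 12, had a median of 0.07, with C1qa at 0.16 (95% interval -0.03 to 0.35) and Fcrls at 0.13 (95% interval -0.11 to 0.36). Their part in the astrocyte values was not tested. The median of each of these 7 lists was also above 0 with another offset, plain background subtraction, the scanner software's processed signals, all spots in the background fit, the authors' deposited value table and the Cy5 channel alone. With the median of each array in place of loess, which put all features at a median of -0.06, microglia markers were at -0.013 with 5 of 12 higher and neuron markers at 0.03 with 9 of 12 higher. On slide 2 alone microglia markers were at -0.11 with 1 of 12 higher, while the medians of the other 6 lists stayed above 0, at 1.18 for choroid plexus, 0.26 for oligodendrocyte and 0.14 for neuron markers.

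Several probes were available for 10 of the 34 genes. Of the 15 probes not used, 8 had a difference opposite in sign to that of the probe used, and 0 passed the adjusted threshold when each of the 28682 kept probes was tested on its own. With the mean of the probes of a gene, 27 of the 34 were higher in cKO.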

How the data were processed

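Hippocampal RNA of 5 cKO and 5 WT mice was measured on 2-colour Agilent arrays. Per the file headers, the authors scanned them with Agilent Feature Extraction 11.0.1.1, and the deposited scanner files hold median spot intensity and background intensity, not normalised, with the software's log10 ratio. The authors' deposited table holds log2 values, which correlated with the ratios computed here at 0.999975 or more and differed by a median of at most 0.00411, with column medians of 0.0120 to 0.0204; it was used as an alternative. The submitters' processing notes name limma.

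Spots marked non-uniform were removed, backgrounds corrected with normexp (offset 50), and Cy5/Cy3 ratios normalised within arrays by loess in limma 3.58.1 (R 4.3.3). Median signals were used because the files hold no means. Spots were averaged, probes kept where the scanner software marked Cy5 well above background on 5 or more of 10 arrays (28682 probes), and 1 probe, the brightest, stood for each of 23574 features. Ratios of dim spots are pulled towards 0. The precision is limited by the 10 arrays, 1 per mouse; whether p-values also hold technical spread cannot be told apart. Probes were named through accessions in a RefSeq table of GRCm38.p6 (26581 of 39429 probes, 67.4%).

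cKO minus WT was tested with lmFit and eBayes, two-sided, with Benjamini-Hochberg adjustment over all 23574 features and a threshold of 0.05. The limma step alone was tested, on simulated log ratios with independent noise for each feature. The earlier processing steps were not simulated. Single genes also had an exact permutation test. No test was run over the gene list. The members and lists were chosen with earlier results of these data known. Every mouse is given for 8 canonical genes, the 5 with the smallest p and the 5 with the widest spread; 4 genes were named from each further astrocyte list and 2 from each other cell type, by smallest p. Replicate numbers did not pair the mice: correlations of same-numbered deviations were -0.56 to 0.16. Alternatives covered background correction, normalisation, channel, probe filter and choice, array weights, slide (as a fixed and as a random block, and slide 2 alone), replicate block and each mouse left out.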

Additional observations from a re-analysis of the deposited data

Results flagged for a closer look

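A mouse far from the other 4 of its genotype was looked for in 70 groups and found in 6. Chance alone marks about 1 in 20 of independent groups. These groups are not independent, since the genes were measured in the same mice and deviated together. In WT mouse 5, the log2 ratio of Gja1 was 1.095 against 1.547 to 1.681 in the other WT mice. Clu was at 4.335 there, against a nearest value of 4.566. Ppap2b was at 2.659 against 2.831, Prdx6 at 1.144 against 1.528 and Mfge8 at 1.363 against 1.59. The sixth was Hepacam, which was high in WT mouse 4, at 1.46 against a nearest value of 1.191. No cKO mouse was so marked in any of the genes.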

How the results depend on the processing

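Under 27 alternatives, 0 of the 34 genes passed the adjusted limma threshold. Slide 2 alone leaves 1 cKO mouse, so no count at an unadjusted p is given for it. In the other settings the unadjusted limma p was under 0.05 for up to 6 of the 34. That was without cKO mouse 2, where it was under 0.05 for 1059 of all features. In all 27 alternatives 6 genes kept their direction: S100b and Kcnj10 higher, Sox9, Ppap2b, Prdx6 and Mfge8 lower in cKO. The 27 are not separate checks. Only slide 2 held both genotypes, so slide as a fixed block and slide 2 alone gave the same differences. Dropping the filter on dim probes, or asking for signal on all 10 arrays, left the median and the count higher as reported. Of 918 single values, 72 moved by more than 1 pooled SD, 27 of them with slide as a fixed block and the same 27 on slide 2 alone. The causes were not tested. The count of features past the threshold was 1 as reported. It was 0 with plain background subtraction (900 at unadjusted limma p under 0.05), when marked spots stayed in the background fit (860) and with Cy5 alone (546). When the probes of a gene were averaged it was 2. The median difference of the 34 genes was 0.185 when marked spots stayed in, and -0.190 with 3 genes higher both with slide as a fixed block and on slide 2 alone, but 0.101 with 28 higher with slide as a random block. It was -0.0396 with 11 higher without cKO 5 and WT 5. The count higher in cKO was 15 with Cy5 alone (median -0.0078) and 16 with the median of each array in place of loess (median -0.0093, when all features were at a median of -0.057). With array weights it was 19 (median 0.0103). The exact permutation p was under 0.05 for 1 gene with plain subtraction, 2 with the scanner software's processed signals and 1 with the median in place of loess. Block, weight and slide 2 settings have no such test. In these alternatives it was run on the 34 genes alone, so it has no share over all features. The SD between mice of each mouse's median log2 ratio over the 34 genes (the level, not the deviation), 0.0920 in cKO and 0.0966 in WT as reported, was 0.206 in cKO and 0.197 in WT with Cy5 alone. When the probes of a gene were averaged it was 0.204 in cKO and 0.194 in WT. In cKO it was 0.198 with an offset of 16 and 0.187 with the mean over the genes, and in WT it was 0.609 when marked spots stayed in. Leaving out each mouse in turn gave 1 to 2 features past the threshold (2 without cKO 4), a median difference of 0.0218 to 0.111, 19 to 29 genes higher and 0 to 4 genes with an exact permutation p under 0.05, 4 of them without cKO 2. The SD of medians then ranged from 0.0577 to 0.101 in cKO and 0.0800 to 0.109 in WT. With a replicate block the median difference was 0.0822 with 26 higher and 1 feature called, so it changed no call. The settings chosen after seeing the data are the joint omission of 2 mice, the median in place of loess, the mean over the genes and the count higher. Dim reference signal limits the ratios of Gfap, Slc39a12, Aqp4 and Gjb6.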
